A study of Homo sapiens with 8 samples.

Results

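Serine palmitoyltransferase, the enzyme that opens sphingolipid synthesis, and the ORMDL proteins that restrain it were followed through 7 genes: C3orf57, SPTLC1, SPTLC2, SPTLC3, ORMDL1, ORMDL2 and ORMDL3. C3orf57 is the older symbol of SPTSSB, and its row carries an accession that RefSeq now assigns to SPTSSB. The members were found by their gene symbol among 29141 features tested, and each of the 7 had 1 feature on the array. The full set of 33297 features, controls included, names 20219 distinct symbols. C3orf57 was selected on its value in these arrays, as a gene on the study's list for the knockdown without IL-13, and the other 6 genes were taken as its partners. Its level in that comparison, and in every comparison that shares those arrays, is therefore given as a description and without a test.

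Expression was measured in MIV-Luc cells, the luciferase-expressing form of MCF10CA1a, which is the metastatic carcinoma line of the MCF10A breast progression series. Cells carried a scrambled hairpin (shSCR) or 1 hairpin against the decoy receptor IL13Rα2 (shIL13Rα2#2), both from a pLKO lentiviral vector, and were puromycin-selected and pooled. Each line was either mock-treated (− IL-13) or treated with 20 ng/ml of the cytokine IL-13 for 16 h (+ IL-13). The 4 groups of 2 arrays, described as biological replicates, make 8 arrays, named A and B here in column order. Each hairpin is represented by 1 pooled line, so the knockdown and the line cannot be told apart, and every group carries the luciferase gene and a hairpin vector. All values are log2 expression levels that the authors made with the RMA method, and a difference of 1 is a 2-fold change. The level of a gene cannot be set against that of another gene on this scale.

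Serine palmitoyltransferase joins serine and palmitoyl-CoA in the endoplasmic reticulum membrane and sets the rate of new sphingolipid synthesis. SPTLC1 is its shared long subunit, and SPTLC2 or SPTLC3 completes the catalytic pair. A small subunit, SPTSSA or SPTSSB, raises its activity and shapes which acyl-CoA it takes. SPTSSB is known for favouring longer acyl chains than SPTSSA, and SPTLC3 for widening the choice to other chain lengths. The ORMDL proteins bind the complex and hold its activity down when ceramide is plentiful. ORMDL3 is also known as a gene of the childhood asthma locus, and IL-13 is a central cytokine of asthma.

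The 250 bases upstream of the RefSeq start site are shown for both small-subunit genes, because they are alternatives in the same place of the complex and C3orf57 (SPTSSB) is the member with the widest range across these arrays. They are RefSeq sequences of GRCh38.p14, read 5′ to 3′ along the gene, at chr3:161371518-161371767 for SPTSSB and chr14:34462241-34462490 for SPTSSA, each on the minus strand. Capitals mark the GC box, searched as GGGCGG on both strands.
SPTSSB: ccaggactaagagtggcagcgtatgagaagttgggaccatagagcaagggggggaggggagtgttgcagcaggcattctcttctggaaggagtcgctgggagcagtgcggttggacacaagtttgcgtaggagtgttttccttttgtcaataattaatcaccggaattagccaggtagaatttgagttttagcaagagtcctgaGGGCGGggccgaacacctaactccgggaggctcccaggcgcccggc
SPTSSA: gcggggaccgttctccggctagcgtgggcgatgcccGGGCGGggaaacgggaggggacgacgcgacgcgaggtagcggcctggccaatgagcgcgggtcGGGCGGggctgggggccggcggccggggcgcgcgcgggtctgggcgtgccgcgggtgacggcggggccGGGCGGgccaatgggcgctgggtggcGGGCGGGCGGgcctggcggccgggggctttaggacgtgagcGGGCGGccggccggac

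The SPTSSB window had 54.8% G and C, with 10 CG dinucleotides and 1 GC box. The SPTSSA window had 82.0% G and C, with 43 CG dinucleotides and 6 GC boxes, of which 1 pair overlaps. Over 35116 such windows of 27305 symbols the median was 58.0% G and C and 11 CG dinucleotides, and 42.6% held a GC box. SPTSSB thus lay near the middle of all windows for CG dinucleotides, with 47.8% of them below it, and SPTSSA near the top, with 99.0% below it. The palindrome TTCNNNNGAA, the spacing known for STAT6, stood in 5.38% of the windows and in none of the 10 windows found for SPTSSA and 6 of the 7 members. TTCNNNGAA, the spacing of other STAT proteins, stood in 6.57% of all windows and, among the members, in that of SPTLC1. The table held no entry for SPTLC3. A match describes letters in a window and not a site, and these windows leave out all sequence farther away.

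The arrays were alike in their overall signal, with medians of 5.016 to 5.056, and the pairs of a group correlated at 0.9918 to 0.9925 across features. Precision is limited by the number of arrays. IL13RA2, the target of the hairpin, was 8.07 and 8.09 in mock shSCR cells and 6.52 and 6.34 in mock knockdown cells, a difference of −1.65 (limma adjusted p = 0.0105). With IL-13 it was 9.36 and 9.33 against 8.23 and 8.15, and treated knockdown cells differed from mock shSCR cells by 0.11 (95% interval −0.14 to 0.36). Cell type markers are given as values only, since these levels do not rank genes. The 4 general epithelial markers spanned 8.75 to 12.12, the 7 basal markers 4.87 to 9.98, the 4 luminal markers 3.03 to 8.32, the 3 leukocyte markers 2.27 to 7.39 and the 3 fibroblast markers 4.40 to 6.29. Of the basal markers, TP63 differed by 1.78 between knockdown cells with IL-13 and mock shSCR cells (limma adjusted p = 0.00969). For the knockdown without IL-13 it differed by 1.19 (adjusted p = 0.0996). All other basal markers were lower in knockdown cells with IL-13 than in mock shSCR cells. Their differences ran from −0.30 for KRT6A to −0.07 for KRT14, with a smallest limma adjusted p of 0.464. The epithelial keratin gene KRT18 differed by −0.64 for the knockdown without IL-13 and −0.56 with it (limma adjusted p = 0.217 and 0.349). A dimmer feature of KRT18 differed less, by −0.38 and −0.23 (limma adjusted p = 0.471 and 0.818). The part of these markers in the values of the members was not tested. Of the 2 endothelial markers, CDH5 lay at 4.40 to 4.83 and PECAM1 at 7.71 to 8.82.

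C3orf57 separated all 4 groups without overlap. It was 7.46 and 7.61 in mock shSCR cells, 6.60 and 6.64 in shSCR cells with IL-13, 8.62 and 8.90 in mock knockdown cells, and 8.06 and 7.80 in knockdown cells with IL-13. The order of the group means was thus mock knockdown (8.76 ± 0.197, SD, n = 2), knockdown with IL-13 (7.93 ± 0.186), mock shSCR (7.54 ± 0.103) and shSCR with IL-13 (6.62 ± 0.0264). Knockdown cells stood above shSCR cells whether IL-13 was present or not, and within each line the treated arrays stood below the mock arrays. The nearest neighbours in that order, knockdown with IL-13 and mock shSCR, were 0.40 apart, with a 95% interval of 0.07 to 0.72. That interval is not adjusted over features and uses mock arrays of the selection, so it is a description and no test of the order. In bulk RNA, a change in the number of cells that express a gene and a change in RNA per cell cannot be told apart.

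**Figure D1:**
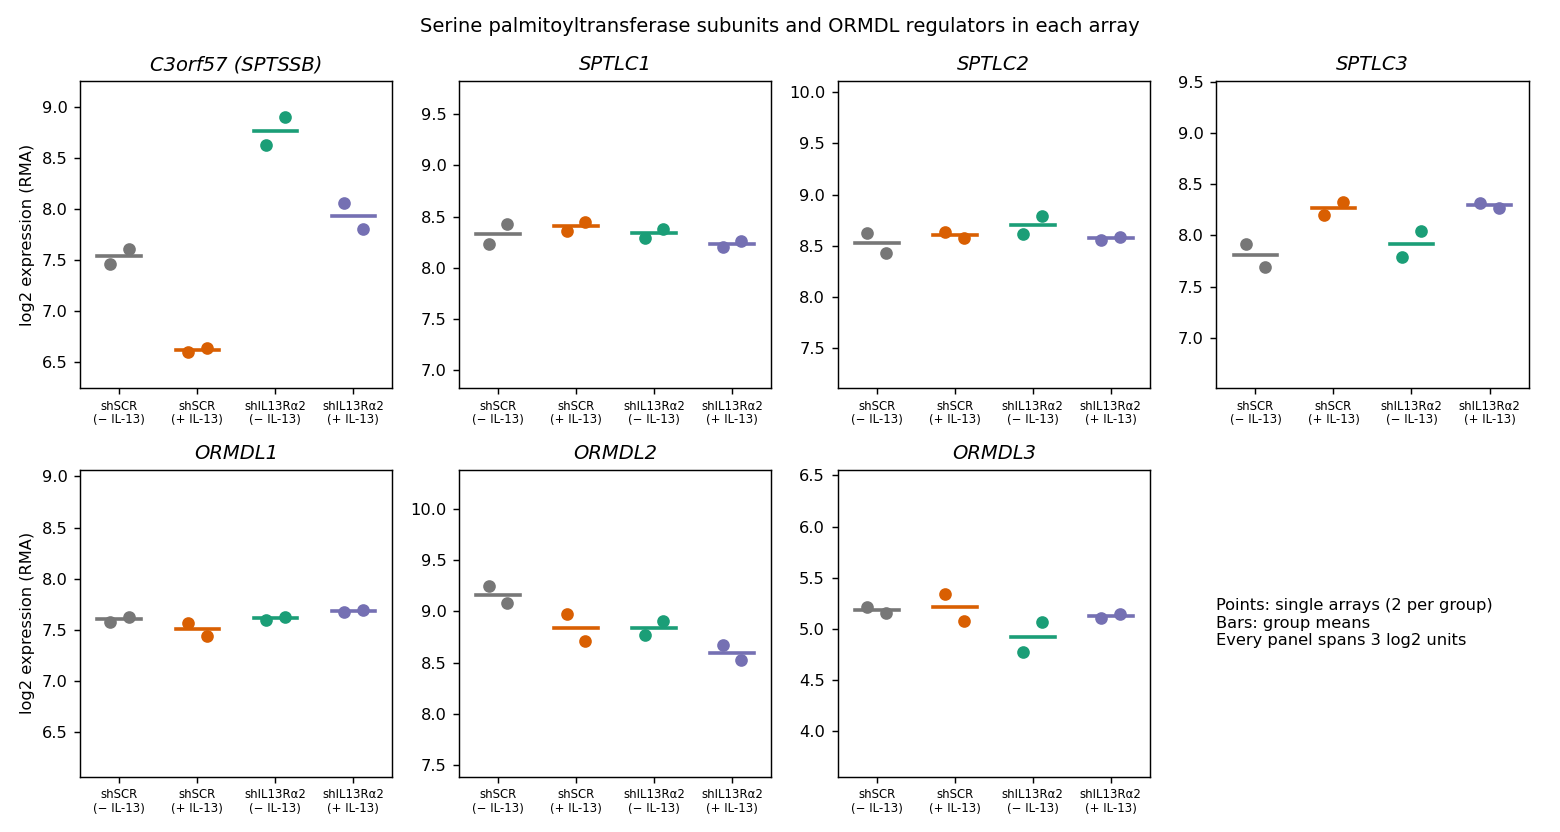
Log2 expression (RMA) of each of the 7 genes on the vertical axis, by group on the horizontal axis, with single arrays as points (2 per group) and group means as bars, every panel spanning 3 log2 units. C3orf57 ranges from 6.60 to 8.90 with 4 separate groups, whereas the highest and lowest arrays of SPTLC1 are 0.25 apart.

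The knockdown among IL-13-treated cells uses none of the arrays on which C3orf57 was selected, and there C3orf57 was 2.48-fold higher in knockdown than in shSCR cells. The log2 difference was 1.31 (SE 0.14, 95% interval 0.98 to 1.64, limma adjusted p = 0.0316), and both knockdown arrays lay above both shSCR arrays. At an adjusted p under 0.05 and a fold change above 2, the rule for a call between groups, 0.0515% of all features were called in this comparison. The spread behind this test was estimated over all 8 arrays, those used for the selection included, and in limma on the 4 treated arrays alone the difference was 1.31 with an adjusted p of 0.237, so the call was lost. Without any 1 of the 8 arrays the difference was 1.18 to 1.44 and the adjusted p 0.0829 to 0.345, again without a call. In the comparison used for its selection, without IL-13, the difference was 1.22, or 2.33-fold, with 95% bounds of 0.89 and 1.55. These bounds take no account of the selection and are a description. Of all features, 0.0652% were called there.

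IL-13 went with lower C3orf57 in both lines. The difference was −0.91 in shSCR cells (95% interval −1.24 to −0.59) and −0.83 in knockdown cells (−1.16 to −0.50), and the interaction of both factors was 0.09, with an interval of −0.38 to 0.55. The background shares of called features were 0.0583% for IL-13 in shSCR cells and 0.0618% for IL-13 in knockdown cells. For C3orf57 both comparisons use mock arrays of the selection, so its differences are a description and no call is read from them. Their intervals take no account of the selection. The effect of IL-13 averaged over both lines (its mean effect) was added after the values were seen and is judged, for other genes, by the adjusted p alone. For C3orf57 it was −0.87, with 95% bounds of −1.10 and −0.64, and −0.94 to −0.80 without any 1 of the 8 arrays. It draws on the mock arrays of the selection and is a description too.

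PECAM1 was also highest in mock knockdown cells and lowest in shSCR cells with IL-13, over a narrower range. Unlike for C3orf57, its knockdown cells with IL-13 and mock shSCR cells overlapped, with means of 8.21 and 8.20. It was 8.33 and 8.08 in mock shSCR cells, 7.71 and 7.83 with IL-13, 8.82 and 8.82 in mock knockdown cells and 8.14 and 8.27 in knockdown cells with IL-13. Its differences were 0.61 for the knockdown without IL-13 and −0.52 for the mean effect of IL-13 (limma adjusted p = 0.217 and 0.0938), while CDH5, the other marker of that list, stayed within 4.40 to 4.83. Whether this has a part in the values of C3orf57 was not tested.

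None of the 6 partners was called in any of the 7 comparisons. Their 42 log2 differences lay between −0.57 and 0.49, none passed an adjusted p under 0.05 in limma, and no 95% interval reached a 2-fold change in either direction, the outermost bounds being −0.88 and 0.80. At an unadjusted p under 0.05 there were 2 of 6 for IL-13 in shSCR cells (6.79% of all features), 1 for the knockdown without IL-13 (9.51%), 1 for IL-13 in knockdown cells (6.93%) and 0 for the knockdown among IL-13-treated cells (7.07%). The knockdown with IL-13 against mock shSCR cells gave 2 of 6 (9.56%, with 0.154% called), the mean effect of IL-13 gave 2 (8.73%, with 0.233% past the adjusted p), and the interaction gave 0 (4.47%). For the interaction, 0% of all features passed an adjusted p under 0.05 in limma, and 1304 had an unadjusted p under 0.05. All of the partner values under that unadjusted limit belonged to SPTLC3 and ORMDL2.

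**Figure D2:**
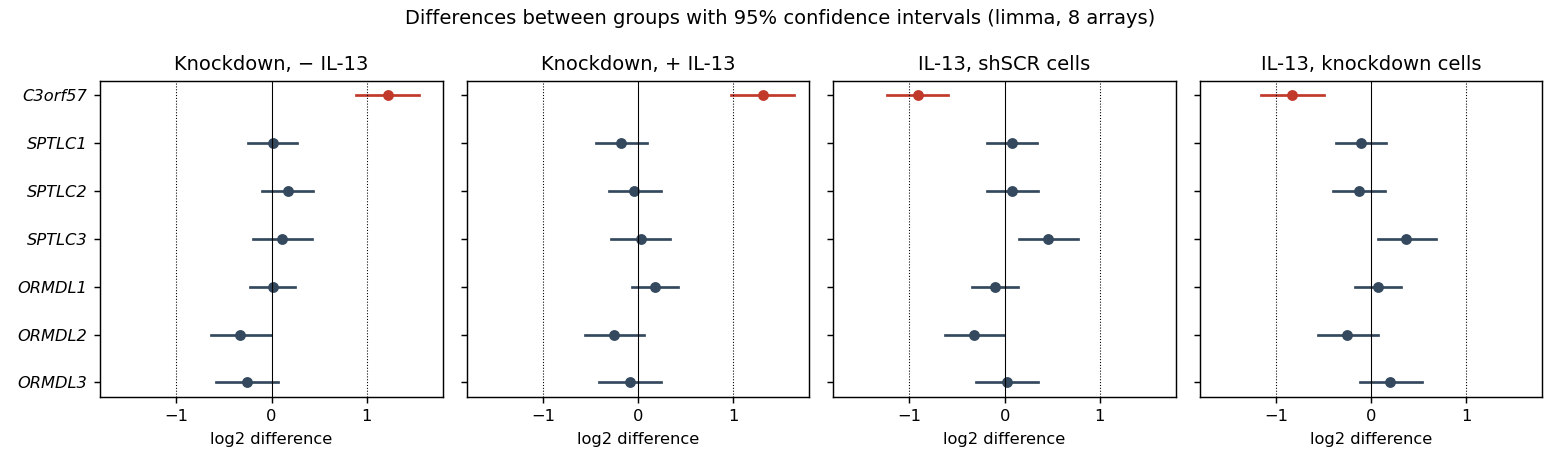
Log2 differences of the 7 genes (points) with 95% confidence intervals (lines) from limma over 8 arrays, in 4 comparisons, with dotted lines at a 2-fold change. C3orf57, in red, lies at 1.22 and 1.31 for the knockdown and at −0.91 and −0.83 for IL-13, and every interval of the other genes stays inside the dotted lines.

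Among the long subunits, SPTLC1, the obligatory partner in every form of the enzyme, was 8.23 and 8.43 in mock shSCR cells, 8.36 and 8.45 with IL-13, 8.29 and 8.38 in mock knockdown cells and 8.20 and 8.26 in knockdown cells with IL-13. SPTLC2, the widely used catalytic subunit, was 8.62 and 8.43, 8.63 and 8.58, 8.61 and 8.79, and 8.56 and 8.59 in the same groups. The groups of either gene lay close together, and their group means spanned 0.18 and 0.17. The intervals of the knockdown among IL-13-treated cells were −0.44 to 0.09 for SPTLC1 and −0.31 to 0.24 for SPTLC2.

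SPTLC3, the alternative catalytic subunit, had the widest spread of group means among the long subunits, 0.49. It was 7.92 and 7.69 in mock shSCR cells and 8.20 and 8.33 with IL-13, then 7.79 and 8.04 in mock knockdown cells and 8.32 and 8.27 with IL-13. In each line both treated arrays stood above both mock arrays, opposite in sign to C3orf57, and the lines overlapped at either treatment. The difference with IL-13 was 0.46 in shSCR cells (95% interval 0.15 to 0.77) and 0.37 in knockdown cells (0.07 to 0.68), with limma adjusted p-values of 0.567 and 0.642. The mean effect of IL-13 was 0.42 (SE 0.09, 95% interval 0.20 to 0.64, unadjusted p = 0.00236, limma adjusted p = 0.235). When limma was given a trend over intensity and a robust prior, the same difference had an adjusted p of 0.0299. For the knockdown the differences were 0.11 without and 0.03 with IL-13.

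Among the inhibitors, ORMDL2 had the largest differences. It was 9.25 and 9.08 in mock shSCR cells, 8.97 and 8.71 with IL-13, 8.77 and 8.91 in mock knockdown cells and 8.67 and 8.52 in knockdown cells with IL-13. Mock shSCR cells were highest and treated knockdown cells lowest, with the remaining groups overlapping between them. The difference was −0.32 for IL-13 in shSCR cells, −0.33 for the knockdown without IL-13, and −0.57 for the knockdown with IL-13 against mock shSCR cells (95% interval −0.88 to −0.26, unadjusted p = 0.00297, limma adjusted p = 0.223). The interaction was 0.08 (−0.36 to 0.52). These comparisons share arrays and are not independent of each other.

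ORMDL1 was 7.58 and 7.63 in mock shSCR cells, 7.57 and 7.44 with IL-13, 7.60 and 7.63 in mock knockdown cells and 7.67 and 7.69 in knockdown cells with IL-13. ORMDL3 was 5.21 and 5.15, 5.34 and 5.08, 4.77 and 5.07, and 5.11 and 5.14 in the same groups. The mock knockdown arrays of ORMDL3 were its lowest and next lowest, and IL-13 differences were 0.03 in shSCR cells (95% interval −0.30 to 0.35) and 0.20 in knockdown cells (−0.12 to 0.53). Over SPTLC1, SPTLC2, ORMDL1 and ORMDL3 together, differences in the 7 comparisons lay between −0.26 and 0.20, with a smallest unadjusted p of 0.105 in limma.

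The genes beside ORMDL3 on its chromosome, which share the asthma locus, were read from a fixed list. Of 6 measured, 0 were called in any comparison, and the smallest adjusted p in limma was 0.551, with 0 also at an unadjusted p under 0.05. Over all features 0% to 0.233% were called and 4.47% to 9.56% passed that unadjusted limit, depending on the comparison. ZPBP2 lay at 2.23 to 2.99, IKZF3 at 3.70 to 4.30, GSDMA at 3.98 to 4.48 and GSDMB at 4.36 to 5.01. PSMD3 lay at 6.34 to 6.77 and CSF3 at 6.43 to 6.68, beside array medians of 5.016 to 5.056. The largest differences between groups were −0.39 for GSDMB, a gasdermin, with IL-13 in shSCR cells (adjusted p = 0.747), and 0.30 for ZPBP2 with the knockdown without IL-13 (adjusted p = 0.664). The 4 neighbours of C3orf57 also gave 0 calls and 0 at that unadjusted limit. NMD3 is a nuclear export factor of the large ribosomal subunit and the protein-coding gene next to C3orf57 in RefSeq. It was 11.56 to 11.70 in shSCR arrays and 11.78 to 11.86 in knockdown arrays. Its knockdown difference was 0.22 without IL-13 and 0.15 with it (limma adjusted p = 0.551 and 0.829). Over the 4 neighbours these differences were 0.03 to 0.27 and 0.05 to 0.35, and their part in the values of C3orf57 was not tested. PPM1L, a phosphatase known to act on the ceramide transporter, differed by 0.35 in the knockdown among IL-13-treated cells (95% interval −0.05 to 0.74, adjusted p = 0.754 in limma).

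The other small subunit, SPTSSA, is listed under its older symbol C14orf147. It was 8.41 and 8.19 in mock shSCR cells, 8.20 and 8.35 with IL-13, 8.41 and 8.38 in mock knockdown cells and 8.24 and 8.43 in knockdown cells with IL-13, and its group means lay within 0.12 of each other. Its difference in the knockdown among IL-13-treated cells was 0.06 (95% interval −0.23 to 0.35), and the mean effect of IL-13 was −0.04 (−0.25 to 0.17).

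The wider pathway was read from 6 lists with 64 measured genes. With SPTSSA, the 65 genes gave 0 calls in each of the 4 comparisons of single factors. The interaction and the knockdown with IL-13 against mock shSCR cells also gave 0. In these comparisons 0% (interaction) to 0.154% of all features were called, so 0 of the 65 lay near that share. At an unadjusted p under 0.05 limma gave 5 of the 65 for IL-13 in shSCR cells, beside 6.79% of all features. For IL-13 in knockdown cells it gave 2 (6.93% of all features). The knockdown gave 4 without IL-13 (9.51%) and 5 with IL-13 present (7.07%). Treated knockdown cells against mock shSCR cells gave 8 (9.56%), the interaction 2 (4.47%) and the mean effect of IL-13 gave 5 (8.73%). The median difference of the 65 genes was 0.009 for the knockdown without IL-13 and −0.036 among IL-13-treated cells, against −0.014 and 0.002 over all features. For IL-13 it was 0.022 in shSCR cells and −0.041 in knockdown cells, against 0.002 and 0.016 over all features.

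Only 1 of the 65 genes passed an adjusted p under 0.05 in limma in any comparison, ACSL5 by the mean effect of IL-13. That effect was added after the values were seen, and 0.233% of all features passed it. For IL-13 within a line, the limma adjusted p of ACSL5 was 0.17 in shSCR cells and 0.401 in knockdown cells. ACSL5 makes long-chain acyl-CoA from fatty acids, the class of substrate that the enzyme joins to serine. It was 5.88 and 5.72 in mock shSCR cells and 6.70 and 6.68 with IL-13, and 5.86 and 6.09 in mock knockdown cells and 6.77 and 6.45 with IL-13, so every treated array lay above every mock array. It rose by 0.76, or 1.69-fold (SE 0.10, 95% interval 0.52 to 1.00, limma adjusted p = 0.0382), and without any 1 of the 8 arrays the adjusted p was 0.0762 to 0.191. The knockdown differences were 0.18 without and −0.08 with IL-13. ACSL4, a related synthetase that favours arachidonate, differed by 0.23 by the same measure (limma adjusted p = 0.455), and the other 6 genes of the palmitoyl-CoA list, FASN among them, had no difference past 0.28 between groups.

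**Figure D3:**
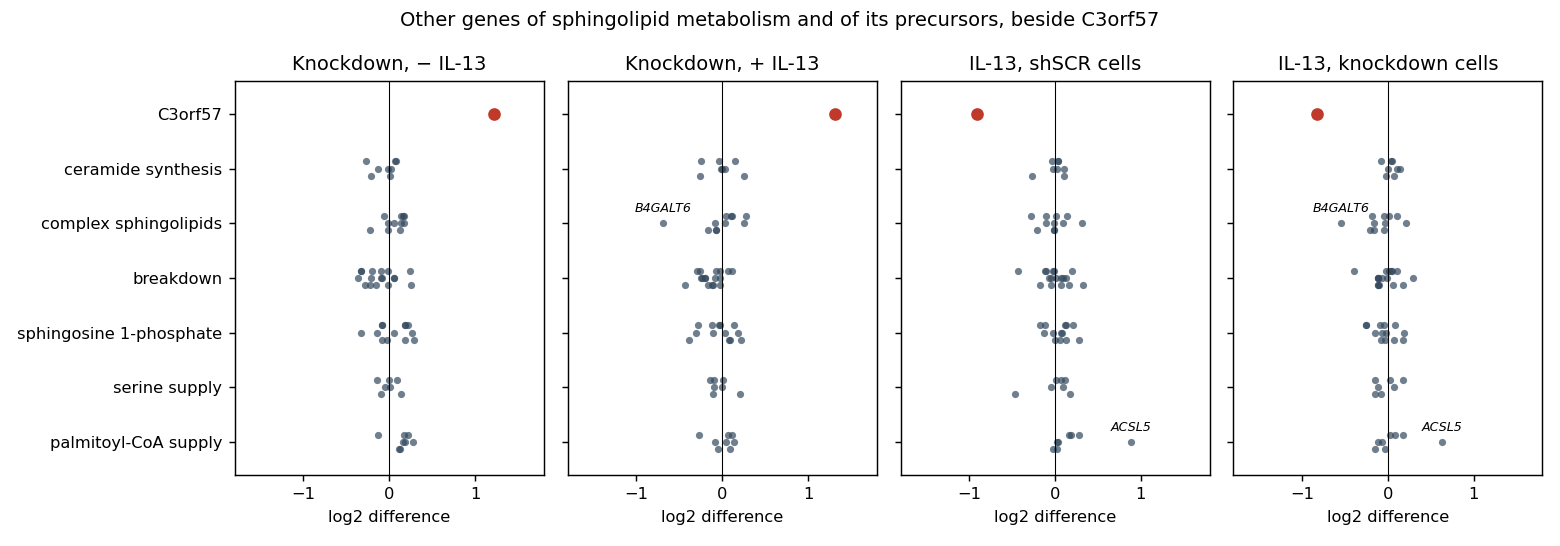
Log2 differences of single genes (points) in 6 lists of sphingolipid metabolism and its precursors, by list on the vertical axis, beside C3orf57 in red, with names at genes past 0.5 in either direction. ACSL5 lies at 0.89 and 0.63 for IL-13 and B4GALT6 at −0.69 for the knockdown with IL-13 present, and the other list genes lie closer to 0.

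The 8 genes of ceramide synthesis downstream of the enzyme held 0 at an unadjusted p under 0.05 in all 7 comparisons in limma. Over all features 4.47% to 9.56% passed that limit, depending on the comparison. Their largest differences between groups were those of the ceramide synthases LASS4 and LASS2 (CERS4 and CERS2), 0.27 in size for each. Among 11 genes of complex sphingolipids, UGT8, which makes galactosylceramide, differed by 0.35 for the knockdown with IL-13 against mock shSCR cells (limma adjusted p = 0.376). Among 17 genes of breakdown, 0 were called in any comparison, beside 0% to 0.233% of all features. At an unadjusted p under 0.05 in limma, 4 of them, all lower, passed for the knockdown with IL-13 against mock shSCR cells (9.56% of all features). Every other comparison held at most 1. GALC, which degrades galactosylceramide, lay at 2.77 to 3.40, with a smallest adjusted p of 0.604 in limma. The 13 genes of sphingosine 1-phosphate and its receptors had a smallest adjusted p of 0.463, with S1PR1 at 2.54 to 3.06 and S1PR4 at 4.38 to 5.68. The 7 genes of the serine list, each read from its brightest feature, had a smallest adjusted p of 0.547. It belonged to PSPH, the last step of serine synthesis, whose dimmer feature is described further below. SLC1A4, a serine carrier, differed by at most 0.17 over the 5 comparisons between groups, and PHGDH by at most 0.02.

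Among the 724 named features that ranged over at least 1 log2 unit across the arrays, the 5 whose values were most like those of C3orf57 were HPGD, CASP14, EPB41L4A, LPHN3 and CEACAM5, with Pearson's r of 0.988, 0.985, 0.981, 0.974 and 0.967 over 8 arrays. The points are 4 groups of 2 arrays, so r follows the group means, and it is given as a description. The study's list for the knockdown without IL-13, on which C3orf57 was selected, also holds HPGD, CASP14, LPHN3 and CEACAM5. Their likeness is therefore not independent of that selection. HPGD, which inactivates prostaglandins, was 6.94 and 6.86 in mock shSCR cells, 5.96 and 6.10 with IL-13, 8.05 and 7.95 in mock knockdown cells and 7.38 and 7.20 in knockdown cells with IL-13. It had the order of groups of C3orf57 and differences of nearly the same size, 1.10 and 1.26 for the knockdown and −0.87 and −0.71 for IL-13. CASP14, a caspase of epidermal differentiation, went farther, from 4.59 in an shSCR array with IL-13 to 8.84 in a mock knockdown array.

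EPB41L4A, a band 4.1 family protein, spanned less, from 7.92 to 9.16, with a knockdown difference of 0.60 without IL-13. LPHN3, the adhesion receptor latrophilin 3, differed by 1.26 in that comparison and CEACAM5, a carcinoembryonic adhesion molecule, by 1.59. The 6 partners gave Pearson's r with C3orf57 between −0.638 (ORMDL3) and 0.608 (ORMDL1) over the 8 arrays, with SPTLC3 at −0.366 and SPTLC1 at −0.325. None of the partners ranged over 1 log2 unit, so none was a candidate for this ranking.

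**Figure D4:**
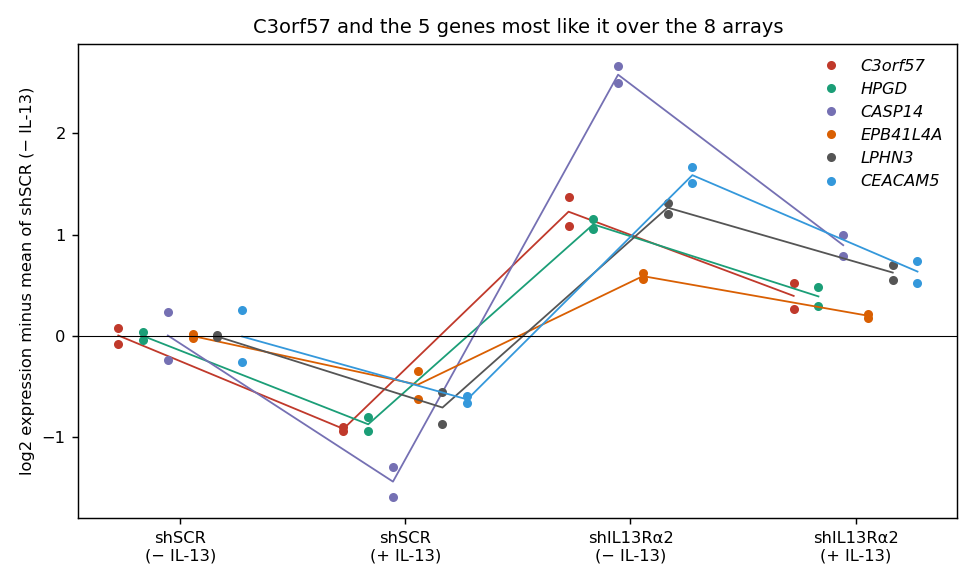
Log2 expression minus the mean of mock shSCR cells (vertical axis) for C3orf57 and the 5 genes most like it, by group (horizontal axis), with 2 arrays per group as points and lines through the group means. All 6 genes lie lowest in shSCR cells with IL-13 and highest in mock knockdown cells.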

How the data were processed

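Expression was measured on Affymetrix GeneChip arrays in 8 samples, 4 groups of 2. The authors deposited log2 values, 1 per gene-level feature and array, made with RMA in Affymetrix Expression Console version 1, which corrects the background, normalizes the arrays together by quantiles and summarizes probes; quantile normalization removes any shift common to all genes. Of 33297 features, 4156 controls were left out, and the other 29141 entered, without a filter on signal, a fit of group means to the 8 arrays (limma 3.58.1, R 4.3.3). Benjamini-Hochberg adjustment ran over all features. Arrays entered groups by their column headings, whose running numbers do not match the numbers of the sample labels. P-values measure the spread between these arrays.

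The members and lists were chosen with earlier results of these data known. A gene with several features was read from the brightest. Genes named from lists were those with an adjusted p under 0.05 and the 2 with the largest difference per list. A gene of the breakdown list that this rule names is not reported here. The lists were ceramide synthesis, complex sphingolipids, breakdown, sphingosine 1-phosphate, serine supply, palmitoyl-CoA supply, neighbours of ORMDL3 and of C3orf57, and cell type markers, and CERS1 and LRRC3C were not found by symbol. The fit was tested on simulated data. Alternatives were other normalizations, priors, filters, the methods' test, and single arrays left out. Promoter sequences came from a RefSeq table.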

Additional observations from a re-analysis of the deposited data

How the results depend on the processing

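For the knockdown among IL-13-treated cells, C3orf57 kept a difference of 1.30 to 1.31 under all alternatives that kept every array of the groups compared, but the call was lost in limma on those 4 arrays alone (1.31, adjusted p = 0.237) and with the methods' test after adjustment (1.31, adjusted p = 0.742). With single arrays left out the difference was 1.18 to 1.44 and the call was lost each time. The mean effect of IL-13 on C3orf57 was −0.88 to −0.87 under the other alternatives, and −0.94 to −0.80 with single arrays left out. Its interaction was −0.05 to 0.23 with single arrays left out. When limma was given a trend over intensity and a robust prior, the partners passing for the mean effect of IL-13 went from 0 to 1, SPTLC3. The pathway genes passing for that effect, 1 in the full fit, were 0 with any array left out. Where an array was left out, its group kept 1 array, assumed to vary like the other groups, and the cause of each lost call was not tested beyond that smaller number of arrays. For the partners, 299 of 300 values under other alternatives stayed on their side of the threshold, and so did 336 of 336 with an array left out, 23 of them with a change of sign among differences that were not called. No paired analysis was possible because the columns carry running numbers that cannot be tied to the replicate numbers of the labels.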

Other observations

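B4GALT6 adds galactose to glucosylceramide on the way to lactosylceramide. With each gene read from its brightest feature, it was the pathway gene whose response to IL-13 differed most between the lines. It was 6.37 and 6.26 in mock shSCR cells and 6.55 and 6.70 with IL-13, and 6.56 and 6.41 in mock knockdown cells and 5.88 and 5.99 with IL-13. Treated arrays thus lay above mock arrays in shSCR cells and below them in knockdown cells. The differences were 0.31 and −0.55, and the interaction was −0.86 (95% interval −1.25 to −0.48, unadjusted p = 0.000857, limma adjusted p = 0.989), so the difference between the lines did not pass the adjustment over all features.

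PSPH has 2 features that carry its symbol, and they disagreed. The brighter, used above, was 7.71 and 7.25 in mock shSCR cells and 7.34 and 7.42 in mock knockdown cells, a difference of −0.10. The dimmer was 5.12 and 5.29 against 3.80 and 4.39, a difference of −1.12 (limma adjusted p = 0.241). The study lists PSPH as downregulated in this comparison, a change that the brighter feature did not show. With IL-13 the lines of the dimmer feature were 4.41 and 4.97 against 5.02 and 4.80. Its interaction was 1.34 (95% interval 0.56 to 2.12, limma adjusted p = 0.989), larger in size than that of B4GALT6.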
